A study of Mus musculus with 15 samples.

Results

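The genes described here mark the megakaryocyte lineage, the cells that shed platelets. They are Itga2b, Itgb3, Pf4, Ppbp, Gp1ba, Gp1bb, Gp9, Vwf and Selp, a list of lineage genes given by symbol and drawn up with earlier results of these data known, and they make up 9 of 55487 mouse gene rows in the count tables. The libraries are bulk RNA sequencing of erythroid progenitors of the fetal liver at stage E12.5, all of strain 129S6/SvEvTac, in a study of the large-subunit ribosomal protein gene Rpl5, a gene mutated in Diamond Blackfan anemia. Group 1 of mice has 3 wildtype and 3 mutant libraries, labelled polyA RNA, and group 2 has 3 wildtype, 3 mutant and 3 low-yield mutant libraries, labelled total RNA. The mutant genotype of group 2, low-yield libraries included, is written Rpl5plusSkax23Jus in the deposited sample sheet, while group 1 mutants are labelled only M. The labels do not define "low-yield", and they do not state whether the libraries of a group came from separate embryos, so p-values measure the spread between these libraries, which may be technical. Because the kind of RNA differs, levels are not compared between the groups of mice.

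Megakaryocytes and red cells arise from shared progenitors, and several early megakaryocyte genes are also expressed in progenitors that are not committed to either fate. Itga2b and Itgb3 encode the paired subunits of the platelet fibrinogen receptor. Gp1ba, Gp1bb and Gp9 encode subunits of the receptor for von Willebrand factor, itself the product of Vwf. Pf4 and Ppbp encode chemokines stored in platelet granules, and Selp encodes a granule-membrane adhesion protein. Vwf and Selp are also made by endothelial cells.

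Promoter windows are shown for the members whose patterns the results turn on: Itga2b and Gp1ba, which were higher in mutant libraries, and the neighbouring chemokine genes Pf4 and Ppbp, which varied between replicates. Each window runs from 250 bases before to 50 bases after the start of the gene in RefSeq (GRCm38.p6), 5′ to 3′ on the strand of the gene. Capitals mark 6-base words, on either strand, of 3 motif families: GATA (the letters GATA after A or T and before A or G), ETS (the letters GGAA after A or C and before A or G) and RUNX (TG, then T or C, then GGT). Words that overlap are merged into 1 run of capitals. The windows are at chr11:102469834-102470133 (minus strand), chr11:70638872-70639171 (plus strand), chr5:90772185-90772484 (plus strand) and chr5:90768268-90768567 (plus strand).
Itga2b: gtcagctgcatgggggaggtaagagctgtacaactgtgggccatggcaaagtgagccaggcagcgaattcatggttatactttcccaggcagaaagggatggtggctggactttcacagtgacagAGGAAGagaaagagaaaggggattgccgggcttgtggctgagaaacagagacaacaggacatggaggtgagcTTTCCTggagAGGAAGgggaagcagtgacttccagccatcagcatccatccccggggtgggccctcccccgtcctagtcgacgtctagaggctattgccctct
Gp1ba: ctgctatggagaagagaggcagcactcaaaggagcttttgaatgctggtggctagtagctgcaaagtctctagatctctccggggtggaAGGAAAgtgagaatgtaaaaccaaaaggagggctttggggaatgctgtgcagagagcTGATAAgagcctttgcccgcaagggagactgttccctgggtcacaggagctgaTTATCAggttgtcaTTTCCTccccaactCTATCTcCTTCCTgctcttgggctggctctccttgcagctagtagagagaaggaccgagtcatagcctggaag
Pf4: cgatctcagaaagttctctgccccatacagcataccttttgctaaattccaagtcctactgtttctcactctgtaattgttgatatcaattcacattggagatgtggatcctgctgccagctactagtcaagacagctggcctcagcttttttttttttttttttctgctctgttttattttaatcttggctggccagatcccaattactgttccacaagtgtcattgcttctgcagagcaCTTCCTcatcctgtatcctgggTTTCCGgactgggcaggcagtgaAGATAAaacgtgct
Ppbp: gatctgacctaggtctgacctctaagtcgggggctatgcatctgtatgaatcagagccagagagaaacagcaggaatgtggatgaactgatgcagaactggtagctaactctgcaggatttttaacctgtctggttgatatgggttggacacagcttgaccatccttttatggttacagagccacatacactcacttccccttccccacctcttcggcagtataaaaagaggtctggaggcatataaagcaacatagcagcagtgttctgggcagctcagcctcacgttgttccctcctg
The table holds windows for 7 of the 9 members and not for Itgb3 and Vwf. An ETS word was found in 6 of the 7 member windows and in 64.7% of 27025 mouse promoter windows of the same length. A GATA word was found in 3 of the 7, those of Gp1ba, Gp1bb and Pf4, and in 30.2% of all windows. A RUNX word was found in 1 of the 7, that of Gp9, and in 22.5% of all windows. The window of Gp1ba holds GATA words at positions 147, 200 and 228, counted from its 5′ end, the window of Pf4 holds one at position 287, and that of Itga2b holds ETS words only. No word of the 3 families is in the Ppbp window. A match is a string of letters and not evidence of binding.

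Sequencing depth, as total counts, lay between 48510828 and 58513669 for the libraries of group 1 and between 24954324 and 44827821 for those of group 2. Rpl5 itself was lower in every mutant library than in every wildtype library of its group of mice, with log2 fold changes of -0.32 in group 1, -0.46 for group 2 mutants and -0.44 for low-yield mutants (edgeR adjusted p = 0.00971, 0.0117 and 0.0087). Rpl5 lost its call in group 2 mutants without wildtype replicate 3 or mutant replicate 1 (0.0597 and 0.063), and the low-yield call without low-yield replicate 2 (0.0666). The erythroid markers, the 9 genes that define the labelled cell type, were present in every library, with a summed level of 3308 to 5434 CPM (counts scaled for library size, with TMM factors from each group of mice alone) in group 1 wildtype and 1953 to 2131 CPM in group 1 mutant libraries. In group 2 the sum was 3632 to 6649 CPM in wildtype, 2482 to 2917 CPM in mutants and 2176 to 3165 CPM in low-yield libraries. Of the 9 erythroid markers, 8 were called lower in group 1 (88.9%, against 6.78% of all genes), 3 in group 2 mutants (33.3%, against 2.95%) and 5 in low-yield libraries (55.6%, against 5.86%), and their part in the differences of the members was not tested. With a library left out, the group 1 calls passed in 3 of 6 fits for Tfrc, 4 for Slc4a1, 2 for Hba-a1 and 6 for the rest. In group 2 mutants Klf1 passed in 9 of 9 such fits, and Hbb-bt and Epor in 5 each. Of the low-yield calls, Klf1, Epor and Hbb-bt passed in 9 of 9, Slc4a1 in 5 and Hba-a1 in 2. Libraries numbered 1 in group 1, wildtype and mutant alike, stood apart in granulocyte markers: the neutrophil list summed to 72.9 and 132.5 CPM there, against 425.6 to 1033 CPM in the other 4 libraries of the group.

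The members were scarce transcripts in these cells. Per exon length (TPM, transcript counts scaled by exon length and library, with lengths from GENCODE M21), the highest group mean of any member was 15.95 ± 4.12 TPM (SD, n = 3), for Itga2b in low-yield libraries. Gp9 stood first in both wildtype groups, at 10.9 ± 1.80 TPM in group 1 and 7.88 ± 3.04 TPM in group 2, but its range overlapped that of the next gene in each, Pf4 and Itga2b. Itga2b stood first in all 3 mutant groups, at 12.8 ± 2.66 TPM in group 1 and 7.96 ± 0.478 TPM in group 2 mutants, again overlapping the next gene, and its range lay apart from the next gene, Gp1ba, in low-yield libraries alone. In group 2 wildtype, Gp1ba (4.30 TPM) overlapped both Itga2b (4.39 TPM) and Vwf (3.98 TPM), while every Itga2b value there was above every Vwf value. Selp was at the bottom throughout, with 4 counts over all 15 libraries, 1 in a group 1 wildtype library and 3 in a group 1 mutant library. No Selp count was found in the 9 libraries of group 2, where a count of 0 allows up to 0.0266 CPM in wildtype, 0.0318 CPM in mutants and 0.0287 CPM in low-yield libraries, counting error alone. Selp passed no filter on low counts and was not tested.

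**Figure D1:**
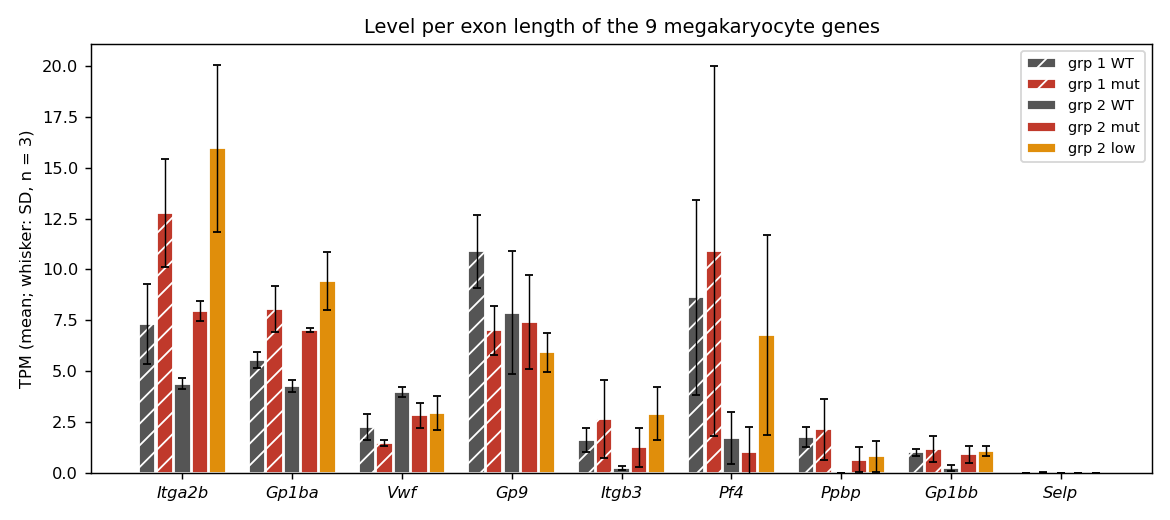
Level per exon length (TPM, vertical axis) of the 9 members in the 5 groups; bars are means and whiskers SD over 3 libraries, hatched for group 1 of mice. Gp9 is the tallest bar in both wildtype groups and Itga2b the tallest in the mutant groups, with 15.95 TPM in low-yield libraries.

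Itga2b, the integrin alpha subunit whose protein is the early megakaryocyte marker CD41, was higher in every mutant library than in every wildtype library of its group of mice. The gene lies on the minus strand of chromosome 11 (102453297 to 102470122, GRCm38). Wildtype libraries of group 1 held 9.07, 13.4 and 15.8 CPM and mutant libraries 16.3, 24.6 and 24.6 CPM, replicates 1 to 3 in order. The lowest library of each genotype is replicate 1, and the genotypes do not overlap. In group 2, wildtype libraries held 9.20, 9.82 and 8.62 CPM, mutant libraries 16.9, 15.4 and 14.7 CPM, and low-yield libraries 34.0, 29.7 and 21.5 CPM. The 3 groups of libraries there form 3 steps with no overlap, although the low-yield libraries spread most (28.4 ± 6.31 CPM against 9.21 ± 0.601 CPM in wildtype, SD).

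The mutant to wildtype difference in Itga2b was close to the same size in both groups of mice: a log2 fold change of 0.77 ± 0.24 (SE) in group 1 and 0.77 ± 0.17 in group 2. In a fit of all 12 wildtype and mutant libraries with a term for the mice's group it was 0.77 ± 0.12, a 1.701-fold difference that passed edgeR's quasi-likelihood test (adjusted p = 0.000165) and did so with any of the 12 libraries left out (adjusted p = 4.92e-05 to 0.00161). Within group 2 it passed as well (adjusted p = 0.0135), except without mutant replicate 1 (0.0541) or wildtype replicate 3 (0.0555). Within group 1 it did not pass (adjusted p = 0.0827). A pairing of the group 1 libraries by replicate number was assumed from these same counts, and the sample titles do not state it. With the number as a block the group 1 value was 0.78 (edgeR adjusted p = 2.73e-05). Over all alternatives the group 1 adjusted p ranged from 2.73e-05 to 0.224. The difference passed also with DESeq2 (0.00211), without mutant replicate 1 (0.0115) and with both libraries numbered 1 left out (0.00224). That last fit was an alternative chosen after seeing the data.

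In low-yield libraries Itga2b was 3.08-fold higher than in wildtype, a log2 fold change of 1.62 ± 0.16 (edgeR adjusted p = 3.57e-05), and this passed in every fit run. Low-yield libraries were also 1.81-fold above the mutant libraries of the same group, a log2 fold change of 0.86 ± 0.15. That difference had an unadjusted p of 5.45e-05 and an adjusted p of 0.819 by edgeR, while DESeq2 gave an adjusted p of 0.00327, and edgeR without low-yield replicate 3, the lowest of its group, gave 0.00443. The adjusted p over all alternatives ran from 0.00327 to 1.0. Both of these comparisons use the low-yield libraries, and both differences from wildtype in group 2 use the same wildtype libraries, so they are not independent of one another.

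**Figure D2:**
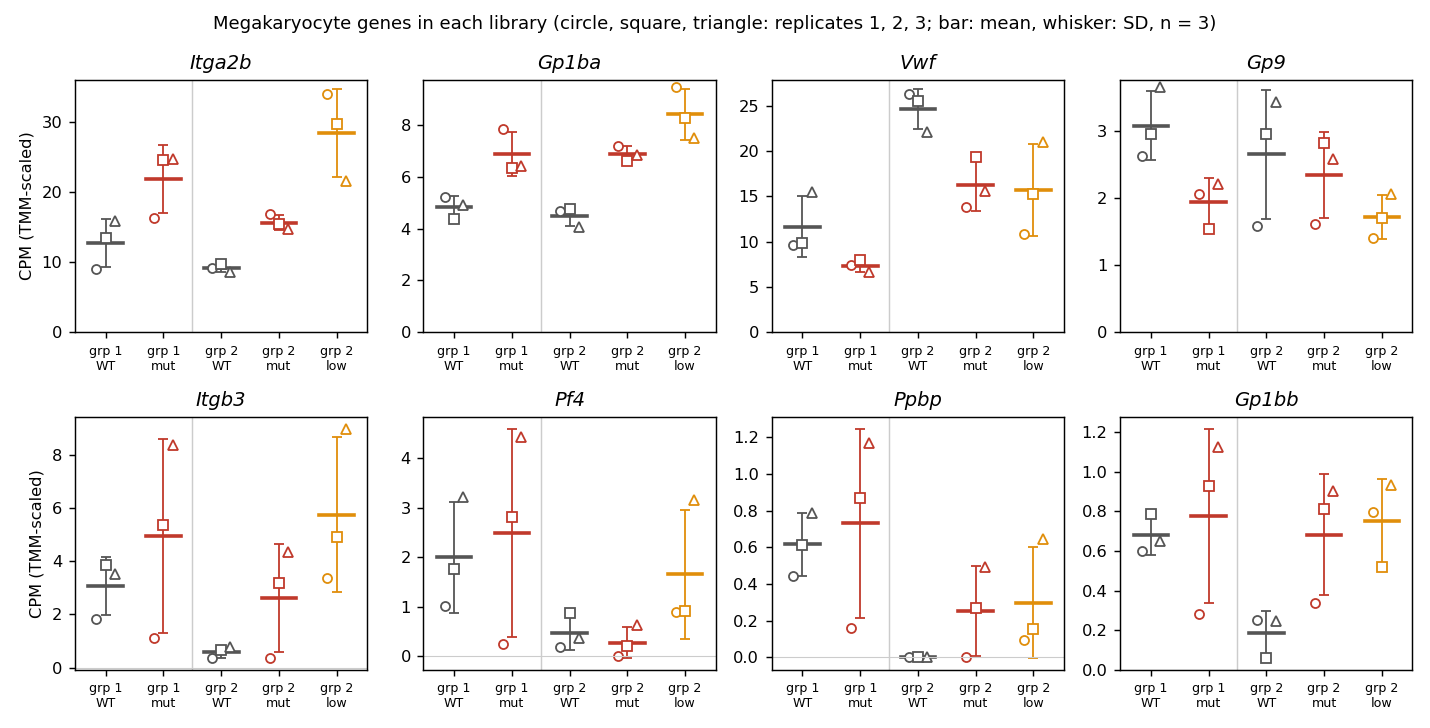
CPM of 8 members (vertical axes, each from 0) in every library of the 5 groups; circles, squares and triangles are replicates 1, 2 and 3, horizontal bars are means and whiskers SD. Itga2b and Gp1ba lie higher and Vwf lower in mutant than in wildtype libraries, whereas Itgb3, Pf4 and Ppbp spread widely within groups; Selp, with 4 counts in all, is not drawn.

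Itgb3 encodes the beta subunit that pairs with the Itga2b product (chromosome 11, plus strand, 104608000 to 104670476). In group 1, wildtype libraries held 1.84, 3.84 and 3.53 CPM and mutant libraries 1.11, 5.34 and 8.38 CPM, so the mutant libraries lay both below and above all wildtype ones. In group 2, wildtype libraries held 0.348, 0.664 and 0.757 CPM, mutant libraries 0.369, 3.16 and 4.34 CPM, and low-yield libraries 3.35, 4.90 and 8.98 CPM. Mutant replicate 1 sat within the wildtype range while the other mutant libraries were well above it, and all low-yield libraries were above wildtype.

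For Itgb3 the low-yield difference passed, with a log2 fold change of 3.27 ± 0.70 (9.64-fold, edgeR adjusted p = 0.0144). It no longer passed when any 1 of the 3 wildtype libraries was left out (adjusted p = 0.0634 to 0.0697 in those fits), with no filter on low counts (0.0609) or with voom (0.186), while the estimate stayed between 2.76 and 3.53 with any library left out. The group 2 mutant difference was 2.15 ± 0.82 (adjusted p = 0.169); without mutant replicate 1 it was 2.65 (0.0165), and without mutant replicate 3 it was 1.46 (0.486). In group 1 the difference was 0.69 ± 0.70 (adjusted p = 0.599), with 1.15 (0.0305) without mutant replicate 1 and 0.07 (0.971) without mutant replicate 3. With both libraries numbered 1 left out of group 1, an alternative chosen after seeing the data, it was 0.90 (0.0429). Over both groups it was 1.02 ± 0.55 (0.24), with 1.39 (0.0187) without group 1 mutant replicate 1. Itga2b over Itgb3, per length, was 3.79 to 5.34 in group 1 wildtype libraries and 12.3 to 28.6 in group 2 wildtype libraries. It was 15.8, 4.99 and 3.18 in group 1 mutant libraries, 49.4, 5.26 and 3.67 in group 2 mutant libraries, and 10.9, 6.56 and 2.60 in low-yield libraries. The ratio was highest in replicate 1 of each of the 5 groups. Replicate numbers were taken as pairs in group 1 alone.

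Gp1ba encodes the subunit of the von Willebrand factor receptor that binds the ligand (chromosome 11, plus strand, 70639122 to 70642036). It varied little between replicates, with a coefficient of variation of 4.31% to 12.3% in the 5 groups. In group 1 wildtype libraries held 5.22, 4.38 and 4.91 CPM and mutant libraries 7.83, 6.32 and 6.42 CPM. In group 2 wildtype libraries held 4.68, 4.76 and 4.05 CPM, mutant libraries 7.19, 6.60 and 6.84 CPM, and low-yield libraries 9.46, 8.24 and 7.50 CPM. Every mutant library was above every wildtype library of its group of mice, and every low-yield library was above every mutant one.

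Over both groups Gp1ba was 1.47-fold higher in mutants, a log2 fold change of 0.55 ± 0.12 (edgeR adjusted p = 0.00286), and it passed with any of the 12 libraries left out (0.00288 to 0.0112). The low-yield difference of 0.90 ± 0.18 from wildtype passed in every fit run (adjusted p = 0.00406, range 4.67e-05 to 0.0317). Taken alone, the mutant difference was 0.50 ± 0.17 in group 1 (adjusted p = 0.0816) and 0.62 ± 0.18 in group 2 (0.0605), neither past the threshold. With the assumed pairing of group 1 as a block the value was 0.50 and passed (adjusted p = 0.0421, range over alternatives 0.0421 to 0.262). In group 2 it passed with DESeq2 (0.0175) and voom (0.04), and the alternatives ranged from 0.0175 to 0.184. The step from mutant to low-yield libraries was 0.28 ± 0.17 (adjusted p = 1.0).

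Gp9 and Gp1bb encode the proteins that join Gp1ba in the receptor complex. Gp9 (chromosome 6, plus strand, 87778072 to 87779768) held 2.63, 2.96 and 3.65 CPM in group 1 wildtype and 2.06, 1.53 and 2.21 CPM in group 1 mutant libraries, which do not overlap. In group 2 it held 1.58, 2.95 and 3.43 CPM in wildtype, 1.61, 2.82 and 2.58 CPM in mutants and 1.41, 1.704 and 2.06 CPM in low-yield libraries, all overlapping. Its log2 fold changes were -0.67 ± 0.26 in group 1 (edgeR adjusted p = 0.12), -0.22 ± 0.33 in group 2 mutants (0.773), -0.64 ± 0.34 in low-yield libraries (0.255) and -0.48 ± 0.21 over both groups (0.123), none past the threshold. Over both groups it passed only without group 2 wildtype replicate 1 (0.0305), the lowest wildtype library. Per length, Gp1ba over Gp9 was 0.437 to 0.644 in group 1 wildtype and 0.941 to 1.34 in group 1 mutant libraries. In group 2 this ratio overlapped between wildtype (0.383 to 0.960) and mutant (0.759 to 1.45) and lay between 1.18 and 2.18 in low-yield libraries.

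Gp1bb (chromosome 16, minus strand, 18620317 to 18622403) has an uncertain level, because 91.1% of its exonic bases are shared on the same strand with Septin5 and 41.5% with Gm49601, so reads could have been divided among them. It held 0.599, 0.788 and 0.651 CPM in group 1 wildtype and 0.283, 0.927 and 1.13 CPM in group 1 mutant libraries. In group 2 it held 0.253, 0.0578 and 0.245 CPM in wildtype, 0.336, 0.810 and 0.903 CPM in mutants and 0.799, 0.517 and 0.934 CPM in low-yield libraries. Group 1 overlapped, while all 6 mutant libraries of group 2 were above its wildtype ones. The low-yield difference was 2.00 ± 0.63 on the log2 scale (edgeR adjusted p = 0.0494), on 21 wildtype and 81 low-yield counts, and passed in only 1 of 9 fits with a library left out (0.0464 to 0.175). It also failed to pass with the legacy quasi-likelihood (0.0862), with no filter on low counts (0.0689) and with the 6 compared libraries alone (0.055). The group 2 mutant difference was 1.87 ± 0.66 (0.109); summed with Septin5 and Gm49601, an alternative chosen after seeing the data, it was 2.26 (0.045), and the low-yield difference was 2.43 (0.0147). The group 1 difference was 0.20 ± 0.50 (0.831), and summed with those genes it turned to -0.27 (0.812).

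Vwf, the ligand of that receptor and the longest member (chromosome 6, plus strand, 125546774 to 125686679, 56 merged exons), went the other way. In group 1 wildtype libraries held 9.63, 9.86 and 15.5 CPM and mutant libraries 7.45, 7.98 and 6.64 CPM. In group 2 wildtype libraries held 26.3, 25.5 and 22.1 CPM, mutant libraries 13.8, 19.3 and 15.6 CPM, and low-yield libraries 10.9, 15.2 and 20.98 CPM. Every mutant and every low-yield library was below every wildtype library of its group of mice.

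Over both groups Vwf was lower in mutants by a log2 fold change of -0.63 ± 0.12 (edgeR adjusted p = 0.000706), and it passed with any of the 12 libraries left out (0.00045 to 0.00291). The value within group 1 was -0.67 ± 0.20 (adjusted p = 0.0453), which passed only without wildtype replicate 1 (0.0444) among the 6 fits that leave a library out; the other 5 gave 0.0616 to 0.185, and voom gave 0.0623. The low-yield value was -0.63 ± 0.19 (adjusted p = 0.0461) and was lost in 7 of 9 such fits, each of the 3 wildtype libraries, low-yield replicates 1 and 2 and mutant replicates 1 and 3 among those left out (adjusted p up to 0.174). The call was also lost with the legacy quasi-likelihood (0.0535), with no filter on low counts (0.0544) and with the 6 compared libraries alone (0.0614). The estimate was -0.43 without low-yield replicate 1 and -0.91 without low-yield replicate 3, where it passed (adjusted p = 0.00308). The group 2 mutant value was -0.60 ± 0.19 (adjusted p = 0.0865, range over alternatives 0.0226 to 0.284). Mutant and low-yield libraries differed by -0.03 ± 0.20 (adjusted p = 1.0).

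Vwf is also an endothelial gene, and 12 other endothelial markers were examined beside it. Their summed level was 57.6 to 63.9 CPM in group 1 wildtype, 66.7 to 69.6 CPM in group 1 mutant, 61.8 to 94.8 CPM in group 2 wildtype, 71.6 to 76.9 CPM in group 2 mutant and 71.0 to 82.1 CPM in low-yield libraries. Most of it came from Egfl7, a secreted vessel factor (50.7 to 62.1 CPM as group means). Cdh5, the endothelial cadherin, was at 0.0680 to 0.277 CPM as group means, and Emcn was at 0 in 3 of the 5 groups, Sox18 in 3 and Robo4 in 3. Plvap, a protein of vessel pores, was the endothelial marker that fell over both groups of mice and in low-yield libraries; its group means were 9.04 and 7.19 CPM in group 1 and 19.1, 11.6 and 11.9 CPM in group 2 wildtype, mutant and low-yield libraries. Tie1, Kdr and Tek, endothelial receptor kinases, rose in low-yield libraries, so that 3 of 6 tested endothelial markers were called higher there (50%, against 6.68% of all genes) and 1 lower (16.7%, against 5.86%). With a library left out, the low-yield call of Tie1 passed in 9 of 9 fits, that of Kdr and of Tek in 4 of 9 each and that of Plvap in 2 of 9. The part of these markers in the Vwf difference was not tested.

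The granule chemokines Pf4 and Ppbp are neighbours on the plus strand of chromosome 5 (90772435 to 90773383 and 90768518 to 90770063) and are among the genes most restricted to mature megakaryocytes. Pf4 held 1.00, 1.77 and 3.22 CPM in group 1 wildtype and 0.243, 2.82 and 4.42 CPM in group 1 mutant libraries. In group 2 it held 0.190, 0.866 and 0.356 CPM in wildtype, 0, 0.193 and 0.619 CPM in mutants and 0.895, 0.913 and 3.16 CPM in low-yield libraries. The group 1 mutant libraries spanned a range of 18.2-fold, and only the low-yield libraries lay above all wildtype ones. The log2 fold changes of Pf4 were 0.30 ± 0.84 in group 1 (edgeR adjusted p = 0.857), -0.61 ± 1.03 in group 2 mutants (0.804), 1.91 ± 0.67 in low-yield libraries (0.0813) and 0.18 ± 0.57 over both groups (0.866), none past the threshold. The low-yield estimate fell to 0.95 (0.43) without low-yield replicate 3, and was 2.60 (0.0826) without wildtype replicate 2 and 1.08 (0.373) with voom. The group 2 mutant estimate was -2.34 (0.515) without mutant replicate 3 and 0.089 (0.986) without wildtype replicate 2.

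Ppbp held 0.445, 0.615 and 0.788 CPM in group 1 wildtype and 0.162, 0.866 and 1.17 CPM in group 1 mutant libraries, a log2 fold change of 0.24 ± 0.57 (edgeR adjusted p = 0.826). In group 2 no count was found in the 3 wildtype libraries, and 26 were found in mutant libraries (0, 7 and 19) and 35 in low-yield libraries (3, 5 and 27). Against the level that a count of 3 over the wildtype group would give, 0.0266 CPM, the pooled level was 10.3-fold higher in mutant and 12.6-fold higher in low-yield libraries. These ratios allow for counting error in wildtype only, and not for error or spread in the mutant and low-yield libraries. Most of these counts were in replicate 3, and without it the ratios were 4.74-fold (7 counts) and 4.75-fold (8 counts). Ppbp did not pass the filter on low counts in group 2 and was not tested there. Over both groups of mice it was tested, at 0.57 ± 0.54 (edgeR adjusted p = 0.511), with 1.65 (0.261) by the legacy quasi-likelihood and 2.14 (0.0805) by DESeq2.

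Itgb3, Pf4, Ppbp and Gp1bb ranked the replicates alike in some groups and not in others. In group 1 wildtype, group 1 mutant and group 2 mutant libraries, replicate 1 was the lowest library for all 4 genes. Replicate 3 was the highest for all 4 in group 1 mutant, group 2 mutant and low-yield libraries. Group 2 wildtype libraries had no such order: Gp1bb was highest in replicate 1 (0.253 CPM) and lowest in replicate 2 (0.0578 CPM), Pf4 was highest in replicate 2 (0.866 CPM), and Ppbp had no count. In low-yield libraries replicate 3 was at the same time the lowest for Itga2b (21.5 CPM) and Gp1ba (7.50 CPM) and the highest for Vwf (20.98 CPM), so a library high in these 4 genes was not high in all members. Gp1ba was highest in replicate 1 in group 1 wildtype, group 1 mutant, group 2 mutant and low-yield libraries. The 4 genes were picked for this description after their values were seen. The neutrophil markers were lowest in replicate 1 too in group 1 wildtype, group 1 mutant and group 2 mutant libraries. Their sums were highest in replicate 2 in both mutant groups (132.5, 1033 and 572.9 CPM in group 1, 53.5, 143.8 and 58.5 CPM in group 2), where the 4 genes were highest in replicate 3, and in low-yield libraries in replicate 1 (169, 95.3 and 107.7 CPM). The part of either in the differences between genotypes was not tested.

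**Figure D3:**
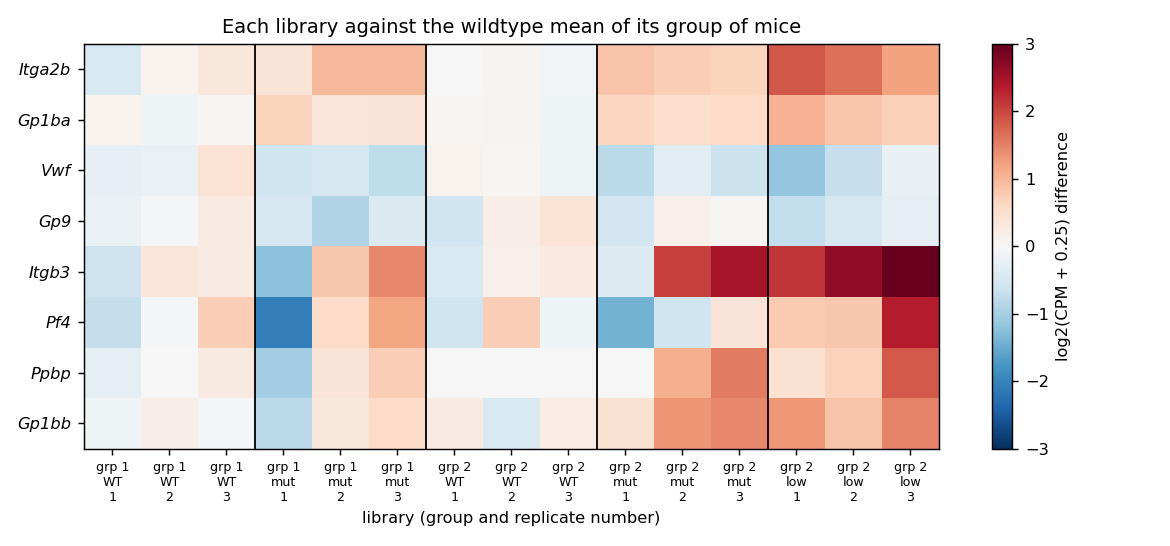
Difference of each library from the wildtype mean of its group of mice, in log2(CPM + 0.25), for 8 members (rows) in 15 libraries (columns, in order of group and replicate number); red is higher and blue lower. Itga2b and Gp1ba are red and Vwf blue in all mutant and low-yield libraries, while Itgb3, Pf4 and Gp1bb are blue in replicate 1 and red in replicates 2 and 3 of the group 1 mutants. For Pf4, mutant replicate 1 is 2.07 below the wildtype mean.

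Counted over the members, 1 of 8 tested passed in group 1 (Vwf, lower), where 6.78% of the 14048 genes tested were called lower and 5.79% higher. In group 2 mutants 1 of 7 passed (Itga2b, higher), where 3.32% of 15024 genes were called higher and 2.95% lower. In low-yield libraries 5 of 7 passed: Itga2b, Itgb3, Gp1ba and Gp1bb were higher, against 6.68% of the 15024 genes, and Vwf was lower, against 5.86%. Over both groups 3 of 8 passed, with Itga2b and Gp1ba higher and Vwf lower, against 9.8% of 15954 genes in each direction. A gene can pass the filter on low counts through the group where it is high, so these counts describe the members and are no test of the lineage. The median log2 fold change of the tested members was 0.27 in group 1, 0.62 in group 2 mutants, 1.62 in low-yield libraries and 0.56 over both groups, against medians over all tested genes between -0.0096 and 0.0075.

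Low-yield against mutant libraries gave 0 of 7 members and 0.0% of genes past the threshold in edgeR, with 480 genes of 15024 at an unadjusted p under 0.05, 6 genes called by DESeq2 and 0 by voom. Itga2b, Pf4 and Gp1ba were higher in each low-yield library than in each mutant library, and the other tested members overlapped. How many of all genes separate in this way was not counted, so the separation only describes these libraries. Whether the mutant difference itself differed between the groups of mice was asked with an interaction term, which gave 0 of 8 members and 0.0188% of genes. Its estimates were 0.01 ± 0.26 for Itga2b, 0.14 ± 0.25 for Gp1ba and 0.08 ± 0.24 for Vwf (edgeR adjusted p = 1.0 for each), and that of Itga2b and of Vwf changed sign in some alternatives. The estimates of the members with lower CPM were further from 0 and had larger SEs, at 1.49 ± 1.33 for Itgb3, 1.68 ± 0.89 for Gp1bb (unadjusted p = 0.0749), 0.47 ± 0.43 for Gp9 and -0.89 ± 1.77 for Pf4 (adjusted p = 1.0 for each). Ppbp, with no count in group 2 wildtype, had a fitted value of 6.34 ± 2.97 that depends on the prior count (unadjusted p = 0.0483, adjusted p = 1.0). In bulk libraries such as these, fewer cells of a type and less RNA per cell cannot be told apart.

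**Figure D4:**
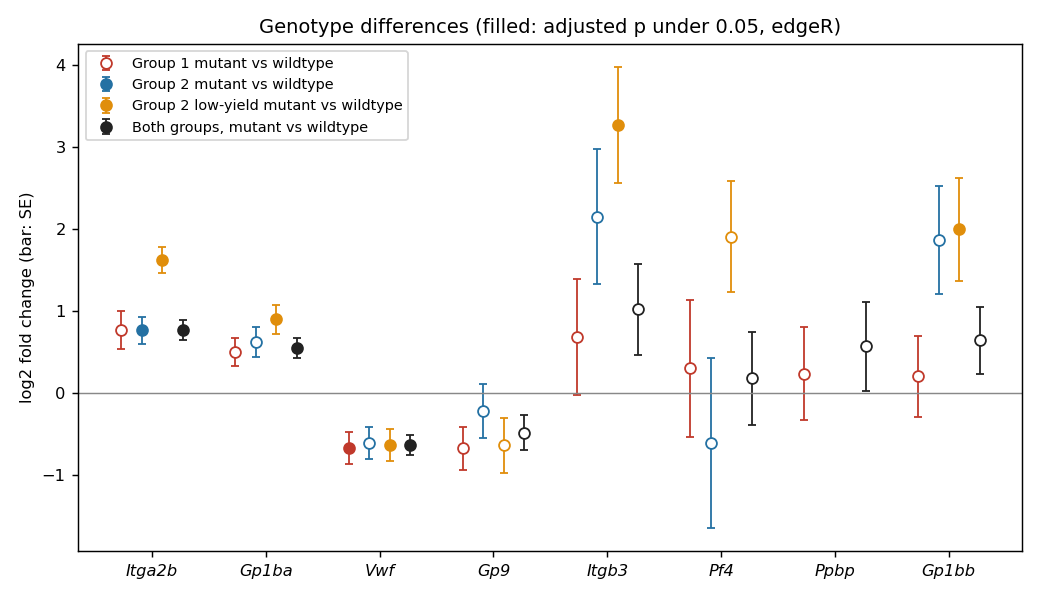
Log2 fold change (vertical axis) with its SE for 8 members in 4 comparisons; filled points passed edgeR's test at an adjusted p under 0.05. Vwf and Gp9 lie below 0 in each comparison, Itga2b and Gp1ba above 0, and Ppbp has no point for the 2 comparisons within group 2 because it was not tested there.

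Other platelet receptor and adhesion genes, a list of 20, moved mostly upward where they passed. In group 1, 2 of 14 tested passed, both higher; in group 2 mutants 3 of 14, all higher; in low-yield libraries 6 of 14, all higher; and over both groups 5 of 18 higher and 1 lower. The shares called higher were 14.3%, 21.4%, 42.9% and 27.8%, against 5.79%, 3.32%, 6.68% and 9.8% of all genes tested, and the share called lower over both groups was 5.56%, against 9.8%. With the pairing of group 1 as a block, 6 of the 14 were called higher and 1 lower there, against 10.5% and 9.92% of all genes. The median log2 fold changes of the list were 0.62, 0.87, 1.01 and 0.59. Pecam1, an adhesion receptor of platelets, leukocytes and endothelium, rose by 1.79 ± 0.37 in group 2 mutants (edgeR adjusted p = 0.00994), 2.58 ± 0.33 in low-yield libraries (0.000233) and 1.60 ± 0.27 over both groups (0.000309); the group 2 mutant call was lost without wildtype replicate 2 (0.0517). In group 1 Pecam1 had a value of 1.53 ± 0.43 (0.0595), and with the pairing as a block 1.55 (1.75e-05). Gp5, the subunit that associates with the Gp1ba complex, rose by 0.95 ± 0.25 in group 1 (0.0292), 1.63 ± 0.33 in low-yield libraries (0.00511) and 1.07 ± 0.21 over both groups (0.000955). In group 2 mutants its value was 1.22 ± 0.35 (0.0519), and the group 1 call of Gp5 passed in 1 of 6 fits with a library left out, that without mutant replicate 1 (0.04 to 0.128). F2r, a thrombin receptor, passed in each of these 4 comparisons, with 0.51 ± 0.15 in group 1 (0.0462) and 0.78 ± 0.15 in low-yield libraries (0.00406). Its group 1 call passed in 1 of 6 such fits, that without mutant replicate 1 (0.0185 to 0.168), and was lost with the legacy quasi-likelihood (0.052). In group 2 mutants F2r was lost without wildtype replicate 2 or 3 or mutant replicate 1 (0.054 to 0.0616). Cd36, a scavenger receptor also found on erythroid precursors, was the member of the list that fell over both groups (-2.21 ± 0.52, 0.00325). Its counts were low, at 0.474 and 0.0809 CPM in group 1 wildtype and mutants and 0.628 and 0.180 CPM in group 2, as group means. It did not pass in group 1 (0.067) or in group 2 mutants (0.0904) alone.

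Of 24 genes for granule cargo, cytoskeleton and signalling, 3 of 23 tested rose and 1 fell in group 1, 4 of 23 rose in group 2 mutants, 12 of 23 rose in low-yield libraries, and 4 of 24 rose and 1 fell over both groups. The shares called higher were 13%, 17.4%, 52.2% and 16.7%, against 5.79%, 3.32%, 6.68% and 9.8% of all genes tested, and the shares called lower were 4.35% in group 1 and 4.17% over both groups, against 6.78% and 9.8%. With the pairing of group 1 as a block, 10 of the 23 rose and 1 fell there, against 10.5% and 9.92% of all genes. The list's median was 0.44, 0.69, 1.54 and 0.53. Rab27b, which is needed for granule release, rose by 1.07 ± 0.15 in group 1 (edgeR adjusted p = 0.00125), 1.82 ± 0.27 in group 2 mutants (0.00158) and 2.02 ± 0.27 in low-yield libraries (0.000252). Lat, an adaptor of collagen receptor signalling, rose by 1.90 ± 0.39 (0.0112), 1.62 ± 0.38 (0.0207) and 2.13 ± 0.35 (0.00127) in the same order. The group 1 call of Lat was lost without wildtype replicate 2 or mutant replicate 3 (0.0647 and 0.0535), and the group 2 mutant call without wildtype replicate 2 or 3 or mutant replicate 2 or 3 (0.0589 to 0.0919). Plek, a substrate of protein kinase C in platelets, rose by 1.95 ± 0.54 in group 2 mutants (0.0466) and 2.91 ± 0.47 in low-yield libraries (0.00104). The group 2 mutant call of Plek passed in 3 of 9 fits with a library left out, those without wildtype replicate 1, mutant replicate 1 or low-yield replicate 3 (0.0122 to 0.148 over the 9), and was lost with voom (0.0686) and with the 6 compared libraries alone (0.0639). In group 1 its value was 1.05 ± 0.91 (0.54), and with the pairing as a block 1.05 (0.000132). Tubb1, the megakaryocyte beta-tubulin, fell by 1.14 on the log2 scale in group 1 (SE 0.14, 0.000467) and by 1.07 over both groups (SE 0.19, 0.00136), while in group 2 mutants its value was -0.97 ± 0.29 (0.0775).

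Of 18 transcription factors of the lineage, 3 rose and 1 fell in group 1, 4 rose and 1 fell in group 2 mutants, 6 rose and 2 fell in low-yield libraries, and 6 rose and 3 fell over both groups, with medians of 0.28, 0.12, 0.20 and 0.21. The shares called higher were 16.7%, 22.2%, 33.3% and 33.3%, against 5.79%, 3.32%, 6.68% and 9.8% of all genes tested. The shares called lower were 5.56%, 5.56%, 11.1% and 16.7%, against 6.78%, 2.95%, 5.86% and 9.8%, so that in group 1 the share of the list called lower was no higher than that of all genes. With the pairing of group 1 as a block, 6 of the 18 rose and 1 fell there, against 10.5% and 9.92%. Runx1 rose in all 3 mutant groups, by 0.61 ± 0.07 in group 1 (edgeR adjusted p = 0.000497), 0.56 ± 0.09 in group 2 mutants (0.00265) and 0.74 ± 0.09 in low-yield libraries (0.000193). Mef2c, a factor of both megakaryocyte and lymphoid cells, rose by 1.38 ± 0.31 (0.0369), 2.02 ± 0.21 (0.00015) and 2.24 ± 0.21 (2.33e-05) in the same order. The group 1 call of Mef2c passed in 2 of 6 fits with a library left out, those without replicate 1 of either genotype (0.00804 to 0.123 over the 6), and was lost with no filter on low counts (0.0913) and with the legacy quasi-likelihood (0.0528). Fli1, an ETS factor of late megakaryocyte genes, rose by 1.52 ± 0.26 in group 2 mutants (0.00377) and 2.16 ± 0.25 in low-yield libraries (0.000103). In group 1 Fli1 had a value of 1.12 ± 0.59 (0.311), and with the pairing as a block 1.15 (7.96e-06). Gata2, a factor of early progenitors, rose by 1.37 ± 0.31 in group 2 mutants (0.0163) and 1.82 ± 0.29 in low-yield libraries (0.00107). Gata2 lost its call in group 2 mutants without wildtype replicate 2 or 3 or mutant replicate 1 or 3 (0.053 to 0.0791), and in group 1 its value was 1.55 ± 0.71 (0.258), with 1.56 (2.44e-07) with the pairing as a block. Tal1 and Nfe2, which serve erythroid cells as well, fell over both groups, by 0.23 (0.00561) and 0.24 (0.00338) on the log2 scale. None of the genes of the 3 lists passed in the comparison of low-yield with mutant libraries or in the interaction.

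Markers of other cells moved in the same libraries. The 9 neutrophil and granulocyte precursor markers were detected in every group, and in group 2 their summed level was 6.64 to 15.1 CPM in wildtype, 53.5 to 143.8 CPM in mutants and 95.3 to 169 CPM in low-yield libraries. The 4 eosinophil markers summed to 5.48 to 24.2 CPM, 91.2 to 95.5 CPM and 75.8 to 234.4 CPM in the same order. In group 2 mutants 6 of 8 tested neutrophil and 2 of 4 eosinophil markers were called higher (75% and 50%, against 3.32% of all genes), and in low-yield libraries 8 of 8 and 4 of 4 (against 6.68%). With a library left out, the group 2 mutant calls passed in 9 of 9 fits for Ear6, 8 for Elane, 7 for Prtn3, 6 for S100a9 and for Camp, 4 for S100a8, 3 for Prg3 and 2 for Mpo, and the low-yield calls in 5 to 9 of 9. In group 1 the ranges overlapped between the genotypes for the neutrophil sums (72.9 to 486.7 CPM in wildtype, 132.5 to 1033 CPM in mutants) and the eosinophil sums (35.5 to 378.9 and 147.8 to 526.3 CPM). Between same-numbered libraries the mutant sum was above the wildtype one in 3 of 3 cases for both lists. That was so too for the endothelial, mast cell and macrophage sums. It held in 2 of 3 cases for the stem cell sums and in 0 of 3 for the hepatocyte and erythroid sums. No neutrophil or eosinophil marker was called in group 1, while with the assumed pairing as a block 4 of 9 and 1 of 4 were called higher, against 10.5% of all genes. So were 1 of 2 mast cell and 1 of 4 macrophage markers, but no endothelial or stem cell marker. With the block, 1 of 7 hepatocyte and 8 of 9 erythroid markers were called lower, against 9.92% of all genes. The 7 hepatocyte markers separated the genotypes of group 1, with sums of 28.9 to 53.8 CPM in wildtype and 4.90 to 17.6 CPM in mutant libraries; Alb and Serpina1a were called lower there (28.6% of the 7, against 6.78% of all genes), and the median log2 fold change of the 7 was -1.49. The call of Serpina1a was lost with any 1 of the 6 libraries left out (0.0543 to 0.13) and that of Alb without mutant replicate 3 (0.0512). In group 2 the hepatocyte sums overlapped (8.25 to 64.6 CPM in wildtype, 7.29 to 40.8 CPM in mutants, 35.1 to 41.3 CPM in low-yield libraries), with none of the 7 called. Mast cell and basophil markers summed to at most 3.44 CPM in any library, with Mcpt4, Tpsb2 and Fcer1a at 0 in all groups; over both groups Cpa3, 1 of 2 tested, was called higher (1.53, adjusted p = 0.0243), in 9 of 12 fits with a library left out. Macrophage markers summed to at most 12.2 CPM, with Cd5l at 0 in all groups; over both groups Vcam1, 1 of 4 tested, was called higher (1.14, adjusted p = 0.0487), in 3 of 12 such fits. The 6 markers of stem and early progenitor cells summed to 1.04 to 24.4 CPM. In group 2 these progenitor sums were 1.04 to 3.12 CPM in wildtype, 1.85 to 6.44 CPM in mutants and 3.83 to 5.63 CPM in low-yield libraries, so the low-yield libraries lay above all wildtype ones, with none of the 5 tested markers called. The part of these cells in the differences of the members was not tested.

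The genes nearest in pattern to Itga2b, Gp1ba and Vwf, the 3 members with the highest mean CPM, were found among 9558 genes, by the root mean square difference over 15 libraries of log2(CPM + 0.25) from the wildtype mean of the same group of mice. Nearest to Itga2b were Aff3 (0.213), Spns2 (0.237) and Evi2b (0.239); Aff3 differed from wildtype by 0.70, 0.76 and 1.45 on that scale in group 1 mutant, group 2 mutant and low-yield libraries, against 0.77, 0.75 and 1.58 for Itga2b. Nearest to Gp1ba were Slx4ip (0.131), Rassf3 (0.132) and Dip2c (0.133). Nearest to Vwf were Bsdc1 (0.184), Leprot (0.193) and Fam162a (0.194), all lower in the 3 mutant groups. The points share libraries and depth, and the likeness is a description.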

How the data were processed

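Per the submitters' processing notes, which give no order, the tools were cutadapt 2.3, FastQC 0.11.8, STAR 2.7.8a, RSEM 1.3.3 and MultiQC 1.7, with BCL Convert 3.9.3 before them and the build GRCm38. Per the labels' protocols, RNA was extracted with RNeasy Micro and read as 151 bp pairs on a NovaSeq. The authors deposited a table of expected counts for each group of mice, whole numbers in every cell, so rounding changed nothing. The annotation release and use of strand are not given in the sources used here. Of the gene rows, 99.38% were found in GENCODE M21, the source of coordinates and lengths. The 5 rows of group 2 and 4 of group 1 that name no mouse gene held 1 and 4 counts and were left out.

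The tests used the package edgeR 4.0.16 under R 4.3.3 (scaling by TMM, filterByExpr, robust quasi-likelihood F test, two-sided), with Benjamini-Hochberg adjustment over all genes tested and a threshold of 0.05. Group 1 was fitted on 6 libraries, group 2 on 9, and both groups and the interaction on 12. The fits were checked on simulated counts. Alternatives were RLE scaling, DESeq2 1.42.0, voom with quality weights (limma 3.58.1), other filters (none, mean CPM of at least 1), the legacy quasi-likelihood, each library left out, and a replicate block. Leaving out both libraries numbered 1 of group 1, and summing Gp1bb with Septin5 and Gm49601, were added after the data were seen. SE is the estimate over its test statistic. In group 1, deviations from the group means of same-numbered wildtype and mutant libraries correlated at 0.441, 0.186 and 0.146 across genes, and the numbers were taken as pairs. Wildtype replicate 3 correlated more with mutant replicate 2 (0.23) than with mutant replicate 3, so the pairing is uncertain. In group 2 the same-numbered wildtype and mutant values were 0.259, 0.15 and 0.016. They did not all exceed 0.1, and the numbers were not taken as pairs there. The choice was made on the same counts that the block fits use, so those fits are no independent evidence. The members and lists were chosen with earlier results of these data known. Named genes were the 9 members, up to 8 genes of each further list by smallest adjusted p among those past the threshold in any comparison, the 3 nearest in pattern to each of the 3 members with the highest mean CPM, and Rpl5. A gene that this rule names is not reported here. Precision is limited by 3 libraries per group.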

Additional observations from a re-analysis of the deposited data

How the results depend on the processing

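The numbers of genes called moved by over 1.5 times in these settings: 1453 (DESeq2) and 2000 (voom) against 942 for group 2 mutants, 3399 (voom) against 1884 for low-yield libraries, 6 (DESeq2) against 0 between low-yield and mutant libraries, and 13 (DESeq2) against 3 for the interaction. With the replicate block, pairing by number, 2863 genes were called in group 1 against 1766, and 5 against 3 in the interaction. In group 2 the numbers were not taken as pairs. The block there gave adjusted p = 0.00622 for Itgb3 in mutants and 0.0239 for Pf4 in low-yield libraries, and over both groups 0.0345 for Itgb3; among members it changed no other call than these and those given for Itga2b and Gp1ba in group 1. With each library left out in turn, the counts ran from 753 to 1729 in group 1, 425 to 1323 for group 2 mutants, 900 to 2395 for low-yield libraries, 0 to 22 between low-yield and mutant libraries, 2526 to 3629 over both groups and 2 to 3 for the interaction. The libraries whose absence moved a count by over 1.5 times were, in group 1, mutant replicate 3 (753) and wildtype replicates 1, 2 and 3 (1051, 836 and 1168). For group 2 mutants they were mutant replicates 1 and 3 (439 and 433) and wildtype replicates 2 and 3 (425 and 480). For low-yield libraries they were low-yield replicates 1 and 2 (902 and 900) and wildtype replicates 2 and 3 (1074 and 1153), and between low-yield and mutant libraries low-yield replicate 3 (22).

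Direction turned only in differences that had not passed. Pf4 in group 1 was -0.052 with voom, Gp1bb in group 1 was -0.27 when summed with Septin5 and Gm49601, and Pf4 over both groups was -0.20 with DESeq2, -0.13 with the legacy quasi-likelihood and -0.32 with voom. The interaction of Itga2b was -0.019 with DESeq2, -0.014 with RLE, -0.0023 with a mean CPM of at least 1, -0.0014 with no filter and -0.11 with voom, and that of Vwf was -0.0064 with voom. Fits that left out a library turned a direction 22 times. The ranges were -0.40 to 0.85 for Pf4, -0.27 to 0.71 for Ppbp and -0.16 to 0.60 for Gp1bb in group 1, -2.34 to 0.089 for Pf4 and -0.45 to 0.031 for Gp9 in group 2 mutants, and -0.18 to 0.45 for Gp1bb and -0.31 to 0.17 for Vwf between low-yield and mutant libraries. They were -0.44 to 0.64 for Pf4 over both groups, and -0.18 to 0.16 for Itga2b and -0.17 to 0.18 for Vwf in the interaction. The cause was not tested for any of these. All 45 group levels moved by less than 1 SD without TMM scaling. Low counts limit Ppbp, Gp1bb, Pf4 and Selp.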
